A study of Danio rerio with 6 samples.

Results

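The miR-34, miR-15 and miR-16 microRNAs (miRNAs) were followed in whole zebrafish embryos raised with or without ethanol. A probe was included when its printed name held a zebrafish miR-34, miR-15 or miR-16, with any letter or star, which gave 10 of the 243 zebrafish-named probes on the array. They were miR-34, miR-34b, miR-34c, miR-15a, miR-15a*, miR-15b, miR-15c, miR-16a, miR-16b and miR-16c, each printed as 4 spots under the species prefix dre (as in dre-miR-34c), which is left off below where a zebrafish probe is meant. The RefSeq gene table (assembly GRCz12tu) gives dre-mir-34 as a synonym of mir34a, so the miR-34 probe carries the older name of miR-34a.

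The controls were embryos in system water, and the treated embryos were kept in 1% or 1.5% ethanol from 4 h after fertilisation, at the blastula stage, until collection at 24 h. Each of the 3 groups had 2 arrays, from 2 biological replicates, made from total RNA labelled with Cy3. Per the labels, normally developed embryos were distributed at random, about 200 to a dish, and neither the strain nor the number of embryos behind each RNA sample was found in the sources used here. The arrays lay in pairs on 3 slides, as read from the experiment names in the scanner files, and each slide held arrays of 2 different groups.

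As background, p53 is a transcription factor that stops the cell cycle or starts cell death after damage, and in mammals it directly activates the genes of the miR-34 family. The miR-34 miRNAs repress mRNAs of cyclins, cyclin-dependent kinases and the survival protein BCL2, and in frog they are also needed for motile cilia. In human cells the miR-15 and miR-16 miRNAs repress cyclin D1, cyclin E and BCL2, and a pair of them is commonly deleted in chronic lymphocytic leukaemia. In zebrafish most of these genes lie in small clusters in the RefSeq table, but mir34a has no miRNA gene beside it. There mir34b neighbours mir34c, mir15a-1 neighbours mir16b, and mir15a-2 neighbours mir16c. The gene mir15c neighbours mir16a, next to the chromosome condensation gene smc4. Members of a family are alike, and a probe may also take up signal from a relative.

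Of the 10 probes, miR-34c and miR-16c gave a signal above the empty spots on all 6 arrays, and the other 8 did not. The limit was the foreground that 95% of an array's empty or blank spots did not exceed, and a probe counted as above it when no fewer of its kept spots lay over the limit than under. By this measure 2 of 10 probes (20%) were above on all arrays, beside 28 of 243 zebrafish probes (11.5%). miR-15b and miR-15c were above on 1 array each, and 6 probes, miR-34, miR-34b, miR-15a, miR-15a*, miR-16a and miR-16b, were above on none. Over all zebrafish probes, 35 of 243 were above on exactly 1 array and 159 of 243 on none. This limit ran from 255.7 to 451.1 intensity units over the 6 arrays. With the limit at the 99th percentile, miR-34c was above on 5 of 6 arrays and miR-16c on 0. In whole embryos fewer cells making a miRNA and less of it per cell cannot be told apart.

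Over the 6 arrays, zebrafish-named spots had a median foreground of 165 to 226 units and empty spots one of 98 to 127. Spots that the scanner software marked to be ignored made up 4.643% to 11.73% of an array, most on control replicate 1. The whole-embryo label was set against marker miRNAs. The limit was passed on 1 array or more by 84 of 243 zebrafish probes. Among the markers it was passed by 3 of 5 miR-430 probes (an early embryonic family) and 2 of 3 nervous system probes. The same held for 4 of 7 muscle and 1 of 3 epidermal probes. On all 6 arrays the counts of these 4 sets were 2, 1, 1 and 1, beside 28 of 243 zebrafish probes. None of 2 red blood cell, 2 endothelial and 1 liver probe reached the limit on any array. The number of arrays limits the precision throughout: an exact two-sided test of 2 arrays against 2 cannot give a p under 0.333, so single probes rest on a limma model of all 6 arrays.

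dre-miR-34c, which belongs to the p53-activated family, was read at 546.25 to 1063 units over the arrays, and no difference between the groups passed the test. Control embryos gave a mean foreground of 1063 and 653.5 units, those in 1% ethanol 673.5 and 738.25, and those in 1.5% ethanol 546.25 and 905. The highest array was a control and the lowest an array of 1.5% ethanol, whose partner was the second highest. The 4 spots of an array were close together: they ran from 1003 to 1137 on control replicate 1, from 520 to 601 on 1.5% ethanol replicate 1 and from 815 to 1005 on 1.5% ethanol replicate 2. The coefficient of variation among the spots of an array was 5.24% to 10.8%. Between replicate arrays, the brighter was 1.63 times the other in control, 1.10 times in 1% ethanol and 1.66 times in 1.5% ethanol. All 24 spots of miR-34c were kept, and between 0.538% and 2.17% of the empty spots of an array were brighter than its mean.

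**Figure D1:**
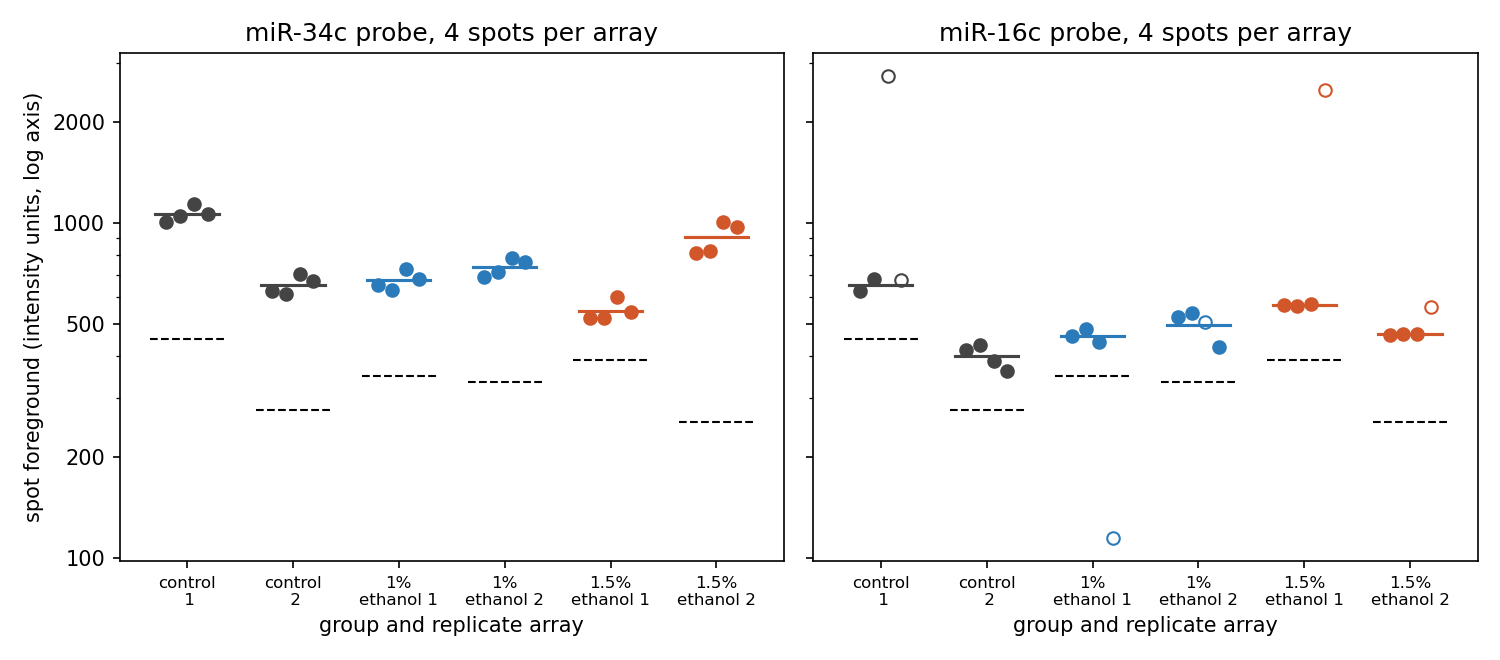
Foreground of each spot of miR-34c (left) and miR-16c (right), in intensity units on a log axis, by group and replicate array. Filled points are kept spots, open points are spots with the ignore mark, solid bars are means of the kept spots, and dashed bars are each array's limit from its empty and blank spots. The 4 spots of miR-34c lie close together on each array. Its replicate arrays lie apart in control (1063 and 653.5) and in 1.5% ethanol (546.25 and 905).

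After background correction and quantile normalisation, the log2 intensity of miR-34c was 9.74 and 9.54 in control embryos, 9.37 and 9.53 with 1% ethanol, and 8.95 and 9.92 with 1.5% ethanol. Both arrays of 1% ethanol were below both controls, by a narrow margin, while the arrays of 1.5% ethanol lay on either side of all others. The group levels were 9.64 ± 0.14 in control, 9.45 ± 0.11 at 1% and 9.44 ± 0.69 at 1.5% ethanol (SD, n = 2), in that order from high to low. None of these neighbouring levels differed beyond the spread between arrays.

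For 1% ethanol minus control the log2 difference of miR-34c was -0.19 (SE 0.32, 95% interval -0.98 to 0.59, limma adjusted p = 0.916). For 1.5% ethanol minus control it was -0.20 (SE 0.32, interval -0.99 to 0.58, limma adjusted p = 0.964). These intervals span 0.509 to 1.51 times and 0.505 to 1.50 times the control level, so the arrays do not show an unchanged level either. Both comparisons use the same control arrays. The model takes 1 spread from all 6 arrays, including the scattered arrays of 1.5% ethanol: with only the arrays of control and 1% ethanol, the SE at 1% was 0.15 (limma adjusted p = 0.786). Between the doses the difference was -0.01 (interval -0.80 to 0.77, limma adjusted p = 0.989). Which array of 1.5% ethanol is used decides the direction at that dose: the difference from control was 0.28 without replicate 1 and -0.69 without replicate 2, neither past the threshold. Leaving out 1% ethanol replicate 2 also turned the difference between the doses, to 0.07, and leaving out 1.5% ethanol replicate 1 gave 0.47.

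Since the slides pair arrays of different groups, miR-34c was also compared within a slide. On slide 1 the log2 difference of the 1% ethanol array from the control array was -0.37, and on slide 2 that of the 1.5% ethanol array from the control array was -0.59. On slide 3 the 1.5% array differed from the 1% array by 0.40. When the model also held a term for each slide, the difference from control was -0.57 at 1% ethanol (limma adjusted p = 0.994) and -0.38 at 1.5% ethanol (limma adjusted p = 0.998). The model with slide terms gave miR-34c and miR-16c the same SE of 0.43, beside 0.32 and 0.16 in the reported fit. No slide held arrays of all 3 groups, and whether slide takes part in the difference was not tested further.

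dre-miR-16c, of the family that represses cyclins, was read at 400 to 653 units over the arrays, and no difference between the groups passed the test. Control embryos gave a mean foreground of 653 and 400 units, those in 1% ethanol 461.667 and 496.333, and those in 1.5% ethanol 569.667 and 465.667. The control arrays held both the brightest and the dimmest value, so the groups overlapped in raw intensity, and the brighter control array was 1.63 times the other. After normalisation its log2 intensity was 8.985 and 8.80 in control embryos, 8.86 and 8.84 with 1% ethanol, and 8.998 and 9.01 with 1.5% ethanol. On this scale both arrays of 1.5% ethanol lay just above all other arrays. Of its 24 spots 6 carried the ignore mark, 2 of them on control replicate 1, and those read 2738 and 674 there. On replicates 1 and 2 the others read 115 and 507 in 1% ethanol, and 2481 and 562 in 1.5% ethanol.

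The group levels of miR-16c from high to low were 9.01 ± 0.01 at 1.5% ethanol, 8.89 ± 0.13 in control and 8.85 ± 0.01 at 1% ethanol (SD, n = 2). The log2 difference from control was -0.05 at 1% ethanol (SE 0.16, 95% interval -0.43 to 0.34, limma adjusted p = 0.941) and 0.11 at 1.5% ethanol (interval -0.27 to 0.50, limma adjusted p = 0.964). Between the doses it was 0.16 (interval -0.23 to 0.54, limma adjusted p = 0.869). As levels, the intervals against control span 0.742 to 1.27 times at 1% and 0.827 to 1.41 times at 1.5% ethanol. Within slides the difference was -0.13 for 1% ethanol minus control on slide 1, 0.19 for 1.5% ethanol minus control on slide 2, and 0.17 for 1.5% minus 1% ethanol on slide 3. Leaving out control replicate 1 turned the difference at 1% ethanol to 0.05. With the ignored spots kept, the differences of miR-16c were larger, at -0.58 for 1% and 0.22 for 1.5% ethanol, and 0.79 between the doses, still not past the threshold (lowest limma adjusted p = 0.748).

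The residual spread of miR-34c over the 6 arrays was 0.41 log2 units and that of miR-16c 0.07, on 3 residual degrees of freedom. Of the 28 probes that were over the limit on all arrays, 9 had a larger spread than miR-34c and 27 a larger one than miR-16c, the median being 0.30. In this set miR-16c had the smallest spread between replicate arrays on the normalised scale, with ignored spots removed.

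**Figure D2:**
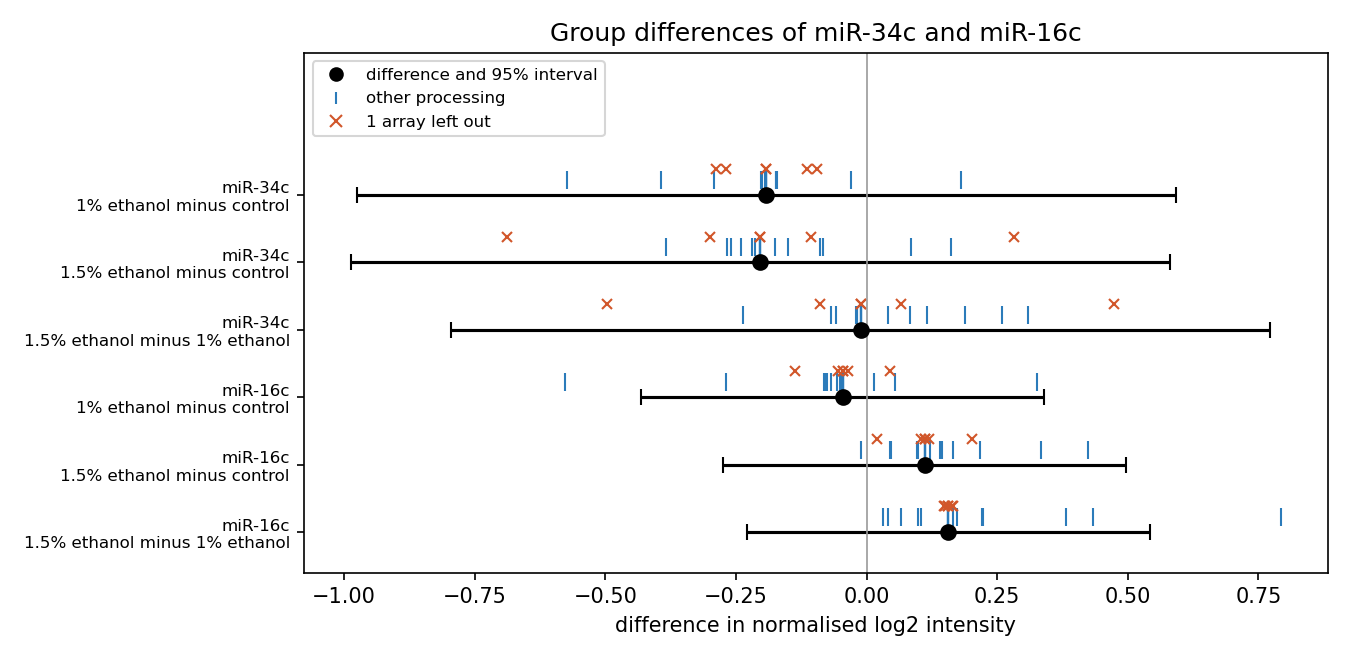
Differences in normalised log2 intensity for miR-34c and miR-16c in the 3 comparisons. Black points and bars are the difference and its 95% interval from limma, blue ticks the same difference under other processing, and orange crosses with 1 array left out. All 6 intervals include 0, and the difference of miR-34c between 1.5% ethanol and control runs from -0.69 to 0.28 with 1 array left out.

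The remaining miR-34 probes did not pass the limit on any array. miR-34b, whose gene lies beside that of miR-34c, had a mean foreground of 218 and 154.75 in control embryos, 149 and 193.75 with 1% ethanol, and 238.5 and 163 with 1.5% ethanol. miR-34, the older name of miR-34a, ran from 160.25 on 1.5% ethanol replicate 2 to 201.25 on control replicate 1. On every array the mean of these probes was under the limit for the empty spots, so the differences of these probes given below are between signals under that limit. Their kept spots had a median foreground of 172 for miR-34b and 176 for miR-34, beside 104 for empty and blank spots. The median of all zebrafish-named spots was 165 to 226 over the arrays.

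Among the miR-15 probes, miR-15c was above the empty spots on control replicate 1 alone, and miR-15b on 1.5% ethanol replicate 1 alone. miR-15c had a mean foreground of 429.5 and 203.75 in control embryos, 212.75 and 236.667 with 1% ethanol, and 198.5 and 202.5 with 1.5% ethanol. The high value came from 1 of the 2 printed copies: on control replicate 1 the spots in the first printed copy read 673 and 606 over local backgrounds of 261 and 242, and those in the second copy read 218 and 221 over 86 and 86. The mean of miR-15c on that array, 429.5, was under the array's limit of 451.1, so the call rests on the first copy alone. miR-15b had 310 and 251 in control embryos, 224.25 and 202.667 with 1% ethanol, and 397.75 and 215.75 with 1.5% ethanol. On 1.5% ethanol replicate 1 its spots ran from 207 to 513. There, too, the brighter spots sat over brighter background, at 185, 159 and 182 units, beside 83 under the dimmest spot. The part of this background in the call above the empty spots was not tested.

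The other miR-15 and miR-16 probes stayed low. For the 6 probes that never passed the limit, the mean foreground of an array ran from 108.5 to 318 and the normalised level from 6.81 to 8.01. miR-16a and miR-16b, from the clusters that also hold miR-15c and miR-15a, reached 318 and 300.333 units at most, on control replicate 1, where the limit was 451.1. miR-15a was highest on 1% ethanol replicate 2, at 224.25, and 106 to 135 per spot on the other array of that group. miR-15a*, the strand opposite miR-15a, was highest on 1.5% ethanol replicate 1, where its spots ran from 101 to 283. These values give no more than an upper bound.

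**Figure D3:**
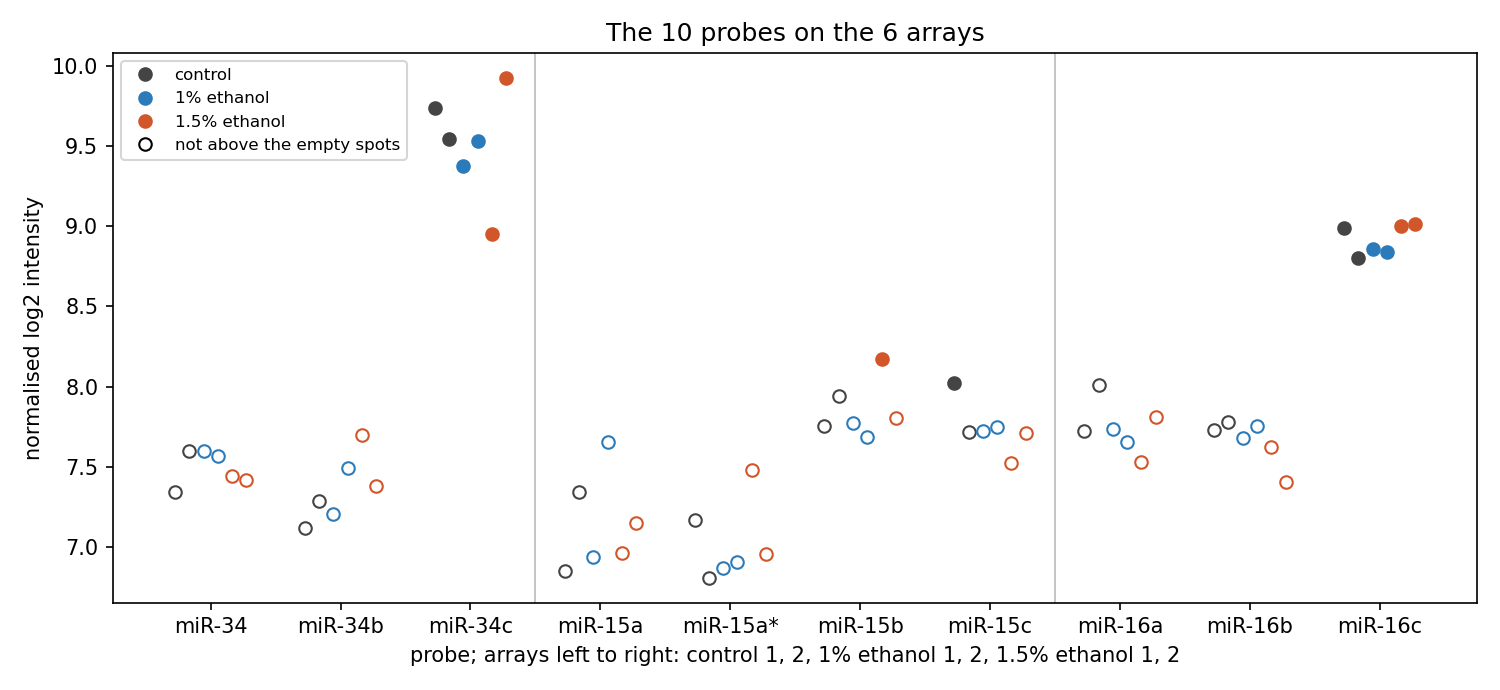
Normalised log2 intensity of the 10 probes on the 6 arrays, coloured by group, with arrays in a fixed order within each probe. Filled points are above the empty spots of their array and open points are not. miR-34c and miR-16c are filled on all 6 arrays, miR-15b and miR-15c on 1 each.

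With limma and Benjamini-Hochberg adjustment over all 243 zebrafish probes, 0 of the 10 probes passed at 1% ethanol, beside 0.412% of all probes (1 of 243). The 10 also had 0 at an unadjusted p under 0.05, where all probes had 15. At 1.5% ethanol 0 of the 10 passed, beside 0% of all probes, with 0 at an unadjusted p under 0.05 beside 12. Between the doses it was again 0 of the 10 beside 0%, with 0 beside 18 at an unadjusted p under 0.05. In the test of any difference among the 3 groups 0 of the 10 passed, beside 0.412%, with 0 beside 14 unadjusted. The lowest limma adjusted p of a member was 0.874, 0.964, 0.869 and 0.878 in these tests. With so few calls over all probes, a count of 0 among 10 does not set these miRNAs apart.

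The median log2 difference of the 10 probes was -0.07 at 1% ethanol, from -0.19 to 0.20, beside 0.002 over all probes. At 1.5% ethanol it was -0.04, from -0.25 to 0.34, beside 0.01, and between the doses -0.02, from -0.24 to 0.33, beside -0.05. These differences are mostly those of probes that did not pass the limit of the empty spots on all arrays.

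Without overlap between the arrays of both groups, 1 of the 10 probes, miR-34c, was lower at 1% ethanol, beside 16.9% of all probes, and 0 were higher, beside 20.6%. At 1.5% ethanol 2 were higher, miR-16c and miR-34b, beside 11.5%, and 2 lower, miR-15c and miR-16b, beside 17.3%. At 1.5% against 1% ethanol 3 were higher, miR-16c, miR-15b and miR-15a*, beside 15.2%, and 3 lower, miR-15c, miR-16b and miR-34, beside 16.5%. Of these, miR-34c and miR-16c had a level above the empty spots on all 6 arrays, and miR-34, miR-34b, miR-15a* and miR-16b on none.

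Other miRNAs of the pathway were counted from fixed lists, and these counts are read against the 0.412% of all probes that passed at 1% and the 0% at 1.5% ethanol, beside which a count of 0 does not set a list apart. The relatives miR-457a and miR-457b share the miR-15 and miR-16 seed, and mir457a lies next to mir15b in the RefSeq table. Of these 2 probes, 0 passed in either direction at either dose. miR-457a was at 7.04 ± 0.17 in control, 7.01 ± 0.12 at 1% and 7.34 ± 0.33 at 1.5% ethanol (SD, n = 2), and above the empty spots on 1 array. miR-457b was at 7.28 ± 0.11, 7.34 ± 0.07 and 7.24 ± 0.0047 and above on none. No zebrafish-named probe for the miR-34 relative miR-449 was found on the array.

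Of 9 probes for miRNAs tied to p53 in human cells, 0 rose and 0 fell past the threshold at either dose, with medians of -0.11 at 1% and -0.03 at 1.5% ethanol beside 0.002 and 0.0089 for all probes. miR-192, which p53 induces in human cells, was above the empty spots on 3 arrays, at 8.36 ± 0.03 in control, 8.10 ± 0.04 at 1% and 7.96 ± 0.38 at 1.5% ethanol (SD, n = 2). Its log2 difference was -0.26 (limma adjusted p = 0.874) and -0.40 (limma adjusted p = 0.964). miR-143, whose maturation p53 promotes in human cells, was at 7.90 ± 0.55, 8.05 ± 0.39 and 7.94 ± 0.54, and miR-103 at 7.64 ± 0.04, 7.80 ± 0.01 and 7.74 ± 0.02, neither over the limit on any array.

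Of 3 probes for miRNAs that target p53 mRNA, 0 rose and 0 fell past the threshold at either dose. Of the same probes, 0 were above the empty spots on any array. miR-125b, which represses p53 in zebrafish and human cells, was at 7.26 ± 0.31 in control, 7.28 ± 0.92 at 1% and 6.81 ± 0.29 at 1.5% ethanol. miR-30d was at 6.63 ± 0.08, 6.99 ± 0.08 and 7.06 ± 0.14, and miR-25 at 7.38 ± 0.07, 7.46 ± 0.27 and 7.25 ± 0.14 (SD, n = 2). Their median log2 differences, between signals that did not pass the limit, were 0.08 at 1% and -0.13 at 1.5% ethanol, beside 0.002 and 0.0089 for all probes.

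The patterns of miR-34c and miR-16c over the 6 arrays were set against the other 27 probes over the limit on all arrays. The probes most like miR-34c were miR-196b (Pearson's r = 0.957), let-7b (0.865) and miR-220 (0.757), where the median over the 27 was 0.155. miR-196b ran 10.45, 10.35, 10.20, 10.21, 9.96 and 10.45 over control, 1% and 1.5% ethanol, so it, too, was lowest on 1.5% ethanol replicate 1. let-7b was at 9.51 on that array and between 10.30 and 10.74 on the others. The probes most like miR-16c were miR-726 (0.639), miR-203a (0.625) and miR-23a (0.5001), where the median was -0.14. The r between miR-34c and miR-16c was 0.08. These correlations rest on 6 arrays that share the groups, slides and normalisation, and are given as a description.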

How the data were processed

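The 6 samples were measured on 1-colour arrays of 5040 spots in 24 blocks. The deposited scanner files hold raw foreground and local background intensity per spot, not background subtracted, and spot areas, per the file headers. The authors' value table, deposited in log2 with probes not centred, was rebuilt as the mean log2 foreground of kept spots of 100 or more minus that of the Ncode_Control spots, to within 0.001 for 1438 of 1440 values. Its column medians ran from -0.20 to 0.48, and it served as an alternative.

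R 4.3.3 and limma 3.58.1 gave normexp correction (offset 50), removal of spots with the ignore mark, log2, quantile normalisation over the miRNA spots, the mean over spots, and lmFit with eBayes on 243 zebrafish-named probes (3 residual and 3.15 prior degrees of freedom). P-values are two-sided and Benjamini-Hochberg adjusted, with a threshold of 0.05. All 10 probes passed a filter of 2 background SD on every array, so none was left out. The fit was also run on simulated data with independent noise and no slide or normalisation effect, and no result here rests on that run. Every probe of the rule was named, and from each of 4 lists of related miRNAs up to 3 by highest mean level. The probes and lists were chosen with earlier results of these data known. The labels do not say whether the biological replicates were separate spawns, so p-values measure the spread between these arrays. Probe sequences are not given in the sources used here.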

Additional observations from a re-analysis of the deposited data

Results flagged for a closer look

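A probe outside the comparisons carried signal in this family. Of 9 probes that carry miR-34, miR-15 or miR-16 names of other species and no zebrafish name, the one named for the fruit fly miR-34 (dme-miR-34) was above the empty spots on all 6 arrays, 6 were above on none and 2 on some. Its mean foreground over the arrays was 1153 units. It read 1415.75 and 1133.75 in control embryos, 1072.5 and 1218.75 with 1% ethanol, and 907.25 and 1172.75 with 1.5% ethanol, so that its lowest array, 1.5% ethanol replicate 1, was also the lowest of miR-34c. In normalised log2 units it was at 10.29 ± 0.23 in control, 10.20 ± 0.03 at 1% and 10.01 ± 0.36 at 1.5% ethanol (SD, n = 2), and its r with miR-34c over the 6 arrays was 0.700. The probes first named for mouse miR-34c, mouse miR-34b, human miR-34b and worm miR-34 were above on no array. Their r with zebrafish miR-34c was 0.694, -0.41, -0.47 and -0.66, so a dim probe came close to the r of dme-miR-34. Human miR-34a was above on 1% ethanol replicate 2 alone, where its spots ran from 113 to 553. Human miR-16 was above on 1% ethanol replicate 1 alone, where its spots ran from 156 to 1297. Likeness in sequence to the zebrafish miRNAs was not tested. No group had the 4 arrays that a search for single outlying arrays needs.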

How the results depend on the processing

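No count for the 10 probes changed: 0 passed in each of the 4 tests under 24 alternatives (23 for any difference), with a lowest limma adjusted p of 0.776 at 1%, 0.466 at 1.5%, 0.422 between doses and 0.534 for any difference. No difference of miR-34c or miR-16c passed, but some turned sign, and the cause was not tested. For miR-34c the 1% difference was 0.18 with the authors' table. Its 1.5% difference was 0.086 with the Ncode_Control scaling and 0.16 with the authors' table, and -0.69 to 0.28 with 1 array left out. Between doses it was 0.082 with cyclic loess, 0.042 with 75th percentile scaling, 0.26 with Ncode_Control scaling, 0.31 with empty and blank spot scaling, 0.12 with ignored spots kept, 0.19 with the slide block, and -0.50 to 0.47 with 1 array left out. For miR-16c the 1% difference was 0.014 without background correction, 0.33 with the authors' table, 0.055 with the median over spots, and -0.14 to 0.045 with 1 array left out; the 1.5% difference was -0.010 without normalisation. Scalings moved the median of all probes by -0.14 to 0.32 against control. Relative to it miR-34c ran from -0.27 to -0.062 at 1%, from -0.26 to -0.11 at 1.5% and from -0.16 to 0.18 between doses, and miR-16c from -0.14 to 0.055, from 0.054 to 0.13 and from 0.11 to 0.30. Of the 8 scalings, the one reported included, 4 shift all probes of an array alike and so give the same relative value by construction, which leaves 5 distinct ones.

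Over all zebrafish probes, 1 passed at 1%, 0 at 1.5%, 0 between doses and 1 for any difference. At 1% it was 0 without normalisation, with the authors' table or the median over spots, 3 with Ncode_Control scaling or the slide block, and 0 to 3 with 1 array left out. At 1.5% it was 2 with Ncode_Control scaling or the slide block and 1 with the authors' table. With Ncode_Control scaling miR-34c and miR-16c had the same SE (0.48), as they did with the slide block (0.43). Counts from these 2 settings, here and below, therefore rest on a spread shared between probes. Of the probes called at 1% there, miR-193b and miR-736 had an SE of 0.887 and 1.07 in the reported fit, and miR-128 one of 0.20. Between doses it was 2 without normalisation, 4 with Ncode_Control scaling or the slide block, 3 with the authors' table, and 0 to 3 with 1 array left out. For any difference it was 6 with Ncode_Control scaling or the slide block, 3 with the authors' table, 0 to 1 with 1 array left out, and 0 without normalisation, with cyclic loess, 75th percentile scaling, ignored spots kept, the median over spots, a filter to probes over the limit on 1 array or more, every species' probes tested, or the replicate block. The r of same-numbered deviations was -0.03, 0.27 and -0.04. With 2 arrays a group on shared slides, this cannot decide whether equal replicate numbers mark paired arrays. The replicate block changed no other call. Of alternatives chosen after seeing the data, 0 of the 10 probes were above the empty spots on all arrays with the 99th percentile and 1 with ignored spots kept, against 2 as reported. Dim signal limits 6 of the 10 probes to upper bounds on every array, and miR-15b and miR-15c on all but 1 array each. For miR-15c that array was control replicate 1, where its mean of 429.5 was under the limit of 451.1.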

Other observations

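The software's spot area set some dim probes apart from empty spots, a measure looked at after the values were seen. Spots of miR-34c had a median area of 10700 square micrometres, those of miR-16c 12100, and kept empty and blank spots 100. An area over 5000 was found for 42.86% of the kept spots of miR-15b and 26.09% of those of miR-15c, beside 0.2283% of 2190 kept empty and blank spots. Their median foreground was 214 and 205 units, beside 104 for the empty spots. The median of all zebrafish-named spots was 165 to 226 over the arrays. For miR-15a, miR-15a* and miR-34 the share was 0%, with a median area of 100. For miR-16a, miR-16b and miR-34b the share was 4.348%, 4.545% and 4.348%, with a median area of 400, 100 and 100. Their median foreground was 212, 233.5 and 172 units. By foreground, miR-16a and miR-16b were thus close to miR-15b and miR-15c, while their shares were lower. The share over all zebrafish probes was not counted, so these shares do not set the probes apart from others on the array.

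The 4 spots of a probe come from 2 printed copies of each block. For miR-34c the second copy was brighter on 6 of 6 arrays, by a ratio of 1.07 to 1.20, and for miR-16c on 2 of the 5 arrays with kept spots in both, with ratios of 0.802 to 1.01. How often the second copy is brighter over all probes was not counted, so this is not given as a trait of miR-34c.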
